A study of Mus musculus with 9 samples.

Results

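The genes described here encode the proteins of the cytosolic ribosome, measured in sorted thymocytes of mice with a conditional knockout (CKO) of Brd1, which encodes a subunit of histone acetyltransferase complexes, and of controls. Members were chosen by name: symbols of the form Rpl or Rps with a number and at most a short suffix, with Rplp0, Rplp1, Rplp2 and Rpsa added and the S6 kinases and pseudogenes left out. The rule found 84 protein-coding genes, of which 82 had a named probe among 20258 named genes; Rps23 and Rpl32l were not analysed here. Of the 82, 51 belong to the large and 31 to the small subunit, and 6 are paralogs of another member (Rpl22l1, Rpl3l, Rpl39l, Rpl10l, Rpl7l1 and Rps27l). The rule itself used no measured value, but it was chosen with earlier results of these data known.

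RNA was hybridised to 9 one-colour arrays, 1 per group. CKO groups carried Brd1flox/flox and Tie2-Cre, and control groups Brd1+/+ and Tie2-Cre, so that every mouse carried the Cre transgene; the promoter of Tie2, the angiopoietin receptor, is active in endothelial and blood-forming cells. The strain was C57BL/6. CD8SP (CD8 single positive) cells of OT-I mice (OT-l in the labels; their T cells carry a transgenic receptor for a peptide on MHC class I) came from both genotypes at 14 weeks of age. CD8SP, CD4SP (CD4 single positive) and DP (CD4 and CD8 double positive) cells came from both genotypes at 8 weeks, and CD4SP cells negative for TCRβ from CKO mice alone, also at 8 weeks. DP cells are the stage before the single positive ones in the thymus. The single positive arrays other than the TCRβ-negative one are called TCRβ-positive below, which their source names do not state. How many mice gave the cells of an array is not stated.

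Levels are log2 signals minus the log2 of their array's 75th percentile, and differences are log2 values on that scale. The share of probes well above background was 39.1% to 45.9% over the arrays, and no probe was saturated. Cd4 lay between 6.19 and 6.54 on the CD4SP, TCRβ-negative and DP arrays and between 3.14 and 3.50 on the CD8SP arrays of both kinds. Brd1 had a level of -0.98 to -0.33 on the 5 CKO arrays, against -1.37 to -0.79 on the 4 control arrays, and limma's genotype estimate was 0.45 (SE 0.19, adjusted p = 0.475). Where its probe lies relative to the deleted part is not known here, so it does not check the deletion. The summed level of 7 T cell genes was 10.84 to 11.42 on the 9 arrays. That of 8 myeloid genes was 5.46 to 6.97, with 5 to 8 of them well above background, and that of 7 stromal and epithelial genes -1.68 to 1.48, with 0 to 2 well above background. That of 6 B cell genes was 1.64 to 3.88 and that of 5 erythroid genes 2.23 to 4.27.

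A ribosome is built from ribosomal RNA and one copy of most of its proteins, and cells tend to make these proteins in step with each other and with growth. Their mRNAs are among the most abundant in a cell. Many start with a C followed by a run of pyrimidines, the 5'TOP tract, through which mTOR signalling controls their translation. A few proteins have paralogs that can take their place in the ribosome, such as Rpl22l1 for Rpl22. Mice without Rpl22 lose most αβ T cells early in development, and Rpl22 represses the mRNA of Rpl22l1 in mice.

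To show what the start sites look like, 30 bases around the RefSeq transcription start (15 before it and 15 from it on, GRCm38.p6) are given for 6 members. Capitals mark a run of at least 5 pyrimidines that is led by a C and begins within 5 bases of the start. Where a gene has several annotated starts, the one with the longest run was taken. The windows are those of both pairs of paralogs described most below, and of Rps6 and Rpl38 as 2 other members with a run.
Rpl22l1: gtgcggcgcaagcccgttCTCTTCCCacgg
Rpl22: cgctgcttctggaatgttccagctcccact
Rps27l: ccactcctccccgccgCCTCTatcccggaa
Rps27: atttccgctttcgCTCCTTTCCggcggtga
Rps6: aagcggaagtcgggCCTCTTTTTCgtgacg
Rpl38: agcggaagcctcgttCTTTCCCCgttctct
Rpl22l1 lies at chr3:28805493-28805522 (+), Rpl22 at chr4:152324421-152324450 (+), Rps27l at chr9:66946071-66946100 (+), Rps27 at chr3:90213634-90213663 (-), Rps6 at chr4:86857353-86857382 (-) and Rpl38 at chr11:114668565-114668594 (+). The runs are 10 bases long in Rps6, 9 in Rps27, 8 in Rpl22l1 and Rpl38 and 5 in Rps27l. Rpl22 has none that begins within 5 bases of the start.

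RefSeq start windows were at hand for 62 of the 82 members. A run of this kind was present in 28 of them (45.2%), against 21.2% of 27025 genes in the same table. In the 300 bases from 250 before the start to 50 after it, and on either strand, CCGGAAG, a form of the ETS motif, was found in 41.9% of members and 9.93% of all genes. AAGATGG, the core of the YY1 motif, was found in 16.1% of members and 7.28% of all genes. TATAAA was found in 11.3% of members and 15.7% of all genes, and CACGTG, the E-box that Myc can bind, in 9.68% of members and 8.09% of all genes. A match to these letters is no evidence of binding. The array values did not separate members by their start: the median difference between CD8SP and DP cells was 0.92 in 26 members with a pyrimidine run and 0.91 in 30 without, leaving out the paralogs.

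Ribosomal protein genes were among the brightest on every array. Of the 82 members, 79 were well above background on all 9 arrays. Rpl39l was so on 3 (the CD8SP, CD4SP and DP arrays of the CKO), and Rpl3l and Rpl10l on 0; in mice these 3 are known from testis (Rpl39l, Rpl10l) and from heart and skeletal muscle (Rpl3l). Of the 100 brightest probes, 31 to 34 were members' on the CD8SP, OT-I CD8SP and CD4SP arrays, against 26 on the TCRβ-negative array and 25 and 24 on the DP arrays of the CKO and the control, a count that no scaling between arrays can move as long as it keeps the order of probes.

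The median level of the 76 members other than the paralogs was 10.48 in OT-I CD8SP cells of the CKO and 10.71 in those of the control. It was 10.63 and 10.86 in CD8SP cells of the CKO and the control, and 10.25 and 10.59 in CD4SP cells of the CKO and the control. It was 9.96 in TCRβ-negative CKO cells, and 10.02 and 9.78 in DP cells of the CKO and the control. All 6 arrays of TCRβ-positive single positive cells therefore lay above the 3 arrays of DP and TCRβ-negative cells, and the CKO array was the lower of its pair in each single positive population and the higher one in DP cells. With no scaling between arrays, a setting added after seeing the data, the CD4SP control array (17.04) lay below the TCRβ-negative array (17.08), and the order within the CD4SP and CD8SP pairs turned round.

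**Figure D1:**
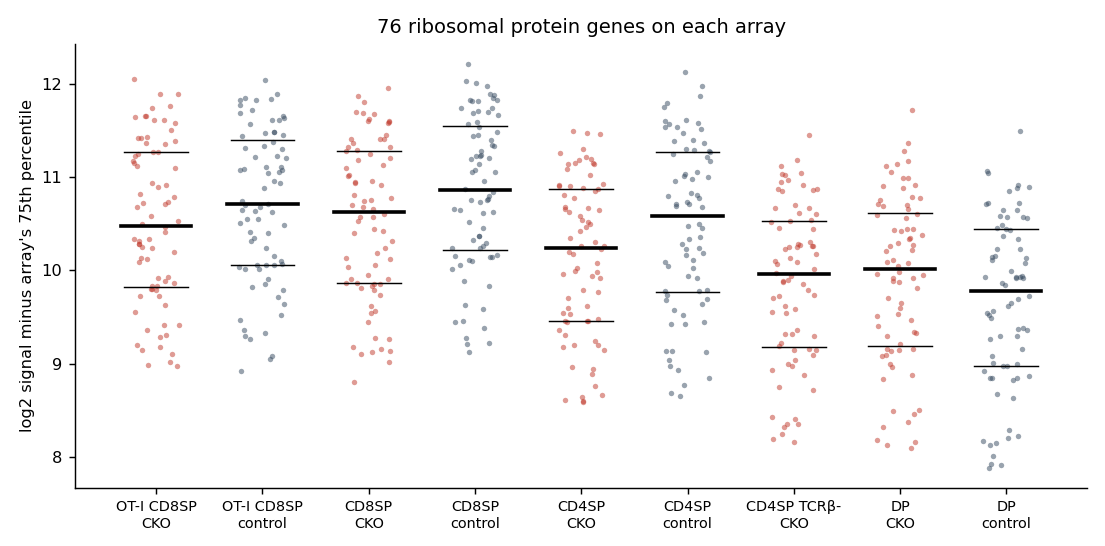
Level of the 76 ribosomal protein genes other than paralogs on each of the 9 arrays (y axis: log2 signal minus the array's 75th percentile). Each point is a gene, CKO red and control dark blue, the thick line is the median and the thin lines are the 25th and 75th percentiles; medians lie between 10.25 and 10.86 in CD8SP, OT-I CD8SP and CD4SP cells and between 9.78 and 10.02 in TCRβ-negative and DP cells.

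Estimates on the main scale were higher in single positive than in DP cells for nearly every ribosomal protein gene, although only 1 gene passed the test. The comparison asks how each mature population differs from DP cells, in limma's fit of population and genotype over the 9 arrays. Estimates for CD8SP minus DP cells were positive for all 80 members tested (52% of all genes) with a median of 0.91, which is 1.88-fold. The median was 0.80 for OT-I CD8SP minus DP cells, with 79 of 80 positive (55.7% of all genes), and 0.52 for CD4SP minus DP cells, with 78 of 80 positive (49.9% of all genes). The median over all 20312 genes tested was 0.03, 0.09 and -0.0013 in these 3 comparisons. In bulk samples like these, more RNA of a gene per cell and more cells that carry it cannot be told apart.

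In each of the 3 comparisons limma called 1 member at an adjusted p below 0.05, Rpl22l1, and no member as lower. Among all genes 2.44% were called higher and 1.04% lower in CD8SP than in DP cells, 1.9% and 1.39% in OT-I CD8SP and 2.17% and 0.916% in CD4SP cells. At an unadjusted p below 0.05 there were 64 of 80 members for CD8SP (20.9% of all genes), 52 for OT-I CD8SP (20% of all genes) and 14 for CD4SP minus DP cells (17.7% of all genes), so that in CD4SP cells the members' share was not above that of all genes. The median SE of a member was 0.29, and with 3 residual and 2.91 prior degrees of freedom differences near 0.9 stayed short of the threshold. Rpl22l1 had a larger one, 1.81 for CD8SP minus DP cells. Under 5 ways of scaling the arrays the medians stayed above 0, but quantile normalization, which gives the brightest probes of every array the same values by construction, left 0.19, 0.16 and 0.16.

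Counting arrays in place of fitting them, both CD8SP arrays lay above both DP arrays for 79 of 80 members, against 27.4% of all genes. The same held for 77 members in OT-I CD8SP cells (27.9% of all genes) and for 68 in CD4SP cells (24.4%). All 4 CD8SP arrays, OT-I included, lay above all 3 arrays of DP and TCRβ-negative cells for 77 members, against 16.5% of all genes; the exceptions were Rpl39l, Rpl7l1 and Rps27l.

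**Figure D2:**
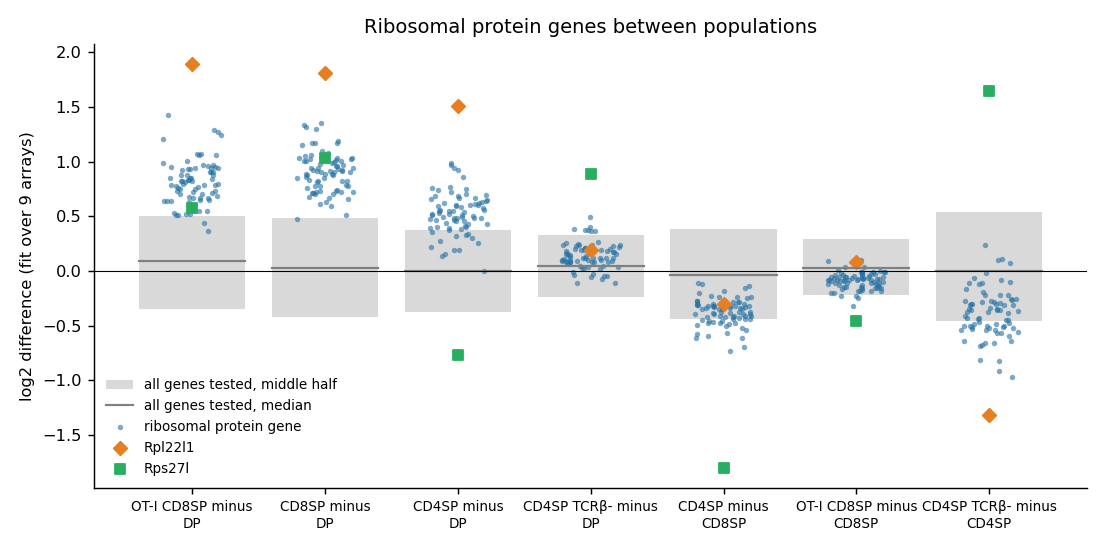
Log2 difference between populations in the fit over 9 arrays, for the 76 ribosomal protein genes other than paralogs (points) and for Rpl22l1 and Rps27l, with the 25th to 75th percentile and the median of all genes tested in grey. The points lie above 0 for all but Rpl28 in the comparisons of TCRβ-positive single positive with DP cells, and Rpl22l1 lies at 1.89 for OT-I CD8SP, 1.81 for CD8SP and 1.51 for CD4SP minus DP cells.

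Members of every role had positive estimates. The stalk proteins Rplp0, Rplp1 and Rplp2, which recruit translation factors to the large subunit, had estimates for CD8SP minus DP cells of 0.66 (SE 0.31, adjusted p = 0.296), 1.1 (SE 0.30, adjusted p = 0.115) and 0.90 (SE 0.27, adjusted p = 0.134) in limma's fit. Rpl5 and Rpl11, which carry the 5S RNA into the ribosome and can bind Mdm2, had 1.08 and 0.71. Rps6, the substrate of the S6 kinases, had 0.99, and Rpsa, also known as the laminin receptor precursor, 0.83. Rps27a, made as a fusion with ubiquitin, had 0.91. Fau, which encodes a ribosomal protein fused to a ubiquitin-like protein and carries no Rpl or Rps symbol, had 0.69. Rack1, a scaffold protein of the small subunit, had 0.67. None of these passed the test.

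Other estimates for CD8SP minus DP cells ran from 0.48 for Rps14 to 1.35 for Rpl36a (adjusted p = 0.449 and 0.0723). Rps19 and Rps18, both of the small subunit, had 1.30 and 1.32, with adjusted p of 0.0591 and 0.0705. In humans RPS19 and RPS14 are known from Diamond-Blackfan anaemia and the 5q- syndrome; here they lay near opposite ends of the members. On the arrays Rps19 had 9.29 and 9.33 in OT-I CD8SP cells of the CKO and the control, 9.26 and 9.46 in CD8SP cells, 8.96 and 9.12 in CD4SP cells, 8.19 in TCRβ-negative cells and 8.13 and 8.00 in DP cells. Its 6 arrays of TCRβ-positive single positive cells did not overlap with the other 3, a split that was not counted over members or all genes. For the 4 CD8SP arrays alone, OT-I included, lying above these 3 it held for 77 members and 16.5% of all genes. The X-linked Rpl36a had an estimate of 1.35 and its autosomal paralog Rpl36al, whose symbol falls outside the rule, 0.88. The X-linked Rps4x had 0.96 and Rpl10, also X-linked, 0.88. Rpl38 and Rpl10a, both of the large subunit, had 1.03 and 1.03, and Rpl39, which lines the exit tunnel, 1.17.

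On the main scale TCRβ-negative CD4SP cells lay closer to DP than to TCRβ-positive CD4SP cells in these genes. Their members had a median of 0.13 above DP cells, with 70 of 80 estimates positive (54.2% of all genes), and of -0.38 against TCRβ-positive CD4SP cells, with 74 of 80 negative (49.9% of all genes). No member was called in either comparison. At an unadjusted p below 0.05 there were 0 of 80 against DP cells (1.64% of all genes) and 4 against CD4SP cells (16.7% of all genes), both below the share of all genes. Among all genes 0% were called against DP cells and 0.231% as higher and 1.18% as lower against CD4SP cells. The estimate against DP cells turned to -0.02 with the 75th percentile of probes well above background on all arrays. This 1 array has no control, and the fit gives it the genotype difference of the other populations. Against the DP array of the same genotype the direction was the reverse. The median level of members other than paralogs was 9.96 on the TCRβ-negative array and 10.02 on the DP CKO array. Rplp1 and Rps18 had the lowest estimates against CD4SP cells among members other than paralogs (-0.97 and -0.91, adjusted p = 0.291 and 0.283). Markers of the DP stage also placed TCRβ-negative cells near DP cells, but in the opposite direction: they were higher there, and the members lower. The summed level of 8 such genes was 11.1 in TCRβ-negative cells and 11.1 and 10.9 in DP cells of the CKO and the control. It was 7.06 and 6.12 in CD4SP cells of the CKO and the control. That of 18 proliferation genes was 9.97 in TCRβ-negative cells and 9.40 and 9.56 in DP cells, against 7.63 and 7.55 in CD4SP cells. The part of cell cycle or stage in the levels of ribosomal protein genes was not tested.

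Between the single positive populations, members had a median of -0.38 in CD4SP minus CD8SP cells, and 80 of 80 estimates were negative (52.6% of all genes). None was called (lower: 0.261% of all genes; 0 members as higher, 0.128%), and under quantile normalization the median was -0.00. In this comparison 18 of 18 proliferation genes had negative estimates (median -2.47), as had 8 of 8 DP stage genes (median -2.69), none of them called. Their part in the members' difference was not tested. For OT-I CD8SP minus CD8SP cells the median was -0.08 with 74 of 80 negative (47.2% of all genes), and it was 0.02 with slide as a block. None was called there either (0.0394% of all genes higher and 0.197% lower).

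Rpl22l1 stood out as the member with the largest difference between single positive and DP cells that passed the test. This paralog of Rpl22 had levels of 8.53 and 8.57 in OT-I CD8SP cells of the CKO and the control and of 8.17 and 8.77 in CD8SP cells. It had 8.01 and 8.32 in CD4SP cells of the CKO and the control, 6.70 in TCRβ-negative CKO cells, and 6.55 and 6.77 in DP cells of the CKO and the control. The arrays form 2 sets that do not overlap, with the 6 arrays of TCRβ-positive single positive cells at 8.01 or more and the other 3 at 6.77 or less. How many other members or genes split the arrays in this way was not counted. In limma's fit Rpl22l1 rose by 1.89 in OT-I CD8SP (SE 0.27, adjusted p = 0.0257), by 1.81 in CD8SP (SE 0.27, adjusted p = 0.0285) and by 1.51 in CD4SP cells (SE 0.27, adjusted p = 0.0493) relative to DP cells. TCRβ-negative minus CD4SP cells gave -1.32 (SE 0.35, adjusted p = 0.153). It was represented by 1 probe.

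The call of Rpl22l1 rested on single arrays, although its estimate did not turn under any setting. Over the alternatives its estimate lay between 1.36 and 2.02 for CD8SP, between 1.46 and 2.30 for OT-I CD8SP and between 1.38 and 1.57 for CD4SP minus DP cells, with adjusted p up to 0.219, 0.585 and 0.385. In limma's fit without the CKO or the control array of DP, CD4SP or CD8SP cells, each of the 6 in turn, none of the 3 comparisons called it. The OT-I comparison also lost the call without either OT-I array.

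Rpl22 itself differed between populations as the other members did. It had levels of 9.86 and 10.40 in OT-I CD8SP cells of the CKO and the control, 10.14 and 10.63 in CD8SP cells, 9.60 and 10.09 in CD4SP cells, 9.61 in TCRβ-negative cells and 9.51 and 9.30 in DP cells. Its CKO arrays were lower than the controls in the 3 single positive pairs, and higher in the DP pair. The estimate for CD8SP minus DP cells was 0.98 (SE 0.30, adjusted p = 0.141), and the genotype estimate -0.33 (SE 0.22, adjusted p = 0.588).

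Rps27l had another pattern across the arrays than most members. It is a paralog of Rps27 and, in human and mouse cells, a known p53 target. It had levels of 6.24 and 8.24 in OT-I CD8SP cells of the CKO and the control, 7.09 and 8.30 in CD8SP cells, 5.73 and 6.07 in CD4SP cells, 7.11 in TCRβ-negative cells and 6.71 and 6.62 in DP cells. The lowest arrays were those of CD4SP cells, and the highest were both control arrays of CD8SP cells. Relative to CD8SP cells the estimate in CD4SP cells was -1.80 (SE 0.53, adjusted p = 0.305), and the genotype estimate was -0.87 (SE 0.37, adjusted p = 0.476). Rps27 had 11.75 and 11.48 in OT-I CD8SP cells of the CKO and the control, 11.63 and 11.70 in CD8SP cells, 11.30 and 11.76 in CD4SP cells, 10.87 in TCRβ-negative cells and 11.12 and 10.85 in DP cells (0.68 for CD8SP minus DP cells). In the OT-I pair it was higher on the CKO array, unlike most members.

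**Figure D3:**
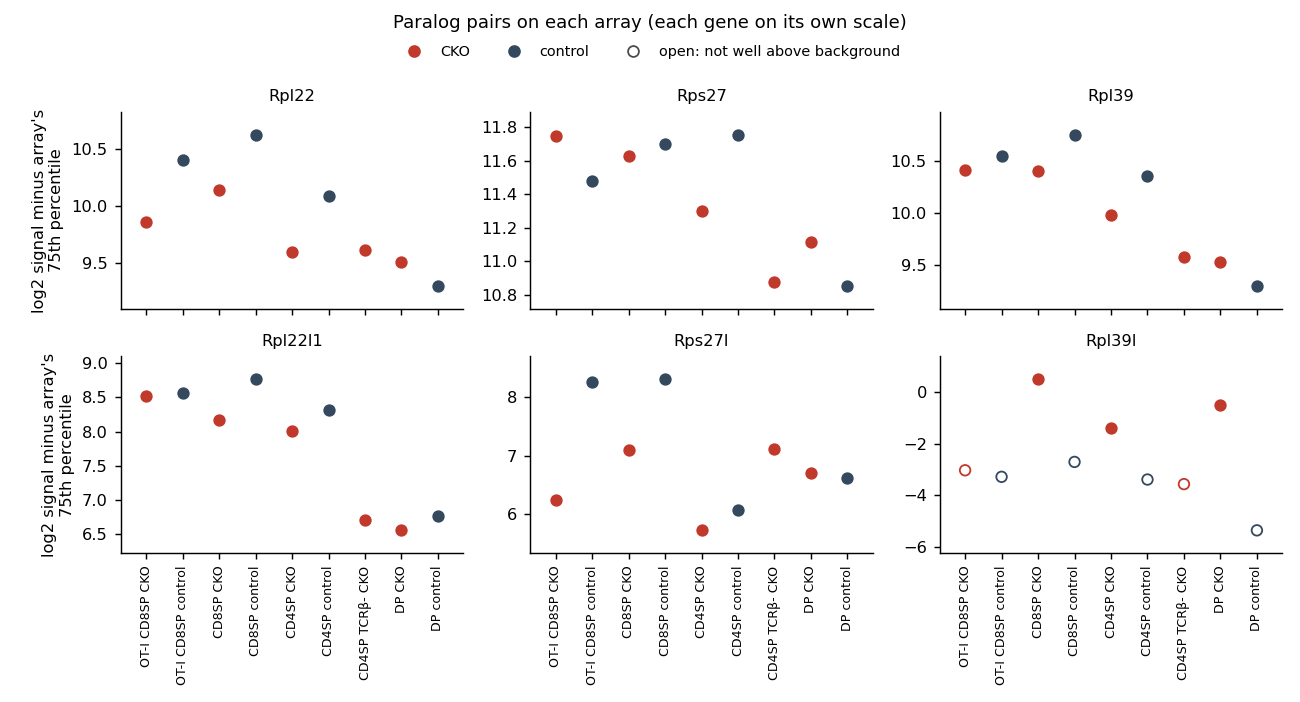
Level of Rpl22, Rps27 and Rpl39 (upper row) and of their paralogs Rpl22l1, Rps27l and Rpl39l (lower row) on each array, CKO red and control dark blue, on the log2 scale relative to the array's 75th percentile; each gene has its own axis, and open points were not well above background. Rpl22l1 is at 6.77 or less in TCRβ-negative and DP cells and at 8.01 or more elsewhere, and Rps27l is lower on the CKO array in CD8SP and OT-I CD8SP cells.

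The genotype comparison asks how CKO cells differ from control cells across the 4 populations measured in both. No ribosomal protein gene was called: of 80 members, 0 rose and 0 fell (all genes: 0.0394% rose and 0.241% fell). At an unadjusted p below 0.05 there was 1 member (10.9% of all genes), Rpl39l, which entered the test through 3 CKO arrays and was not well above background on any control array, so its p and estimate are not used. Estimates were negative for 74 of 80 (54.7% of all genes) with a median of -0.15, which is 0.903-fold, against -0.04 for all genes. Rps27l had -0.87, and the 76 members other than paralogs lay between -0.38 (Rpl3, near the peptidyl transferase centre; SE 0.22, adjusted p = 0.557) and 0.06 (Rps2). The median turned to 0.01 with quantile normalization and to 0.08 with no scaling between arrays.

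On the main scale this fitted difference averages pairs of opposite sign. Each pair is 1 CKO and 1 control array, with no replicate and no test. In DP cells the CKO array was higher for 76 of 76 members other than paralogs (61.9% of all genes), with a median difference of 0.24 (all genes: 0.15). It was lower for 75 of 76 in CD4SP (median -0.34; 51.1% of all genes, median -0.01), for 76 of 76 in CD8SP (median -0.29; 57.9%, median -0.12) and for 58 of 76 in OT-I CD8SP cells (median -0.19; 55.1%, median -0.09). The CD8SP control array was on slide 1 and the CD8SP CKO array on slide 2, so in this pair genotype and slide cannot be told apart. Markers of other cells differed in some pairs: the summed level of 4 NK cell genes was -2.80 and 2.84 in CD4SP cells of the CKO and the control, with 0 and 3 well above background, and that of 5 granulocyte genes -1.02 and 3.50 in DP cells of the CKO and the control, with 3 and 4 well above background. Their part in the members' values was not tested. Of 79 members compared in all pairs, 58 were higher in the CKO in the DP pair and lower in the other 3, against 20% of all genes.

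The direction in the single positive pairs depended on the scaling. The 75th percentile by which the arrays were divided was 140.4 and 87.4 intensity units in CD4SP cells of the CKO and the control, 118.2 and 90.7 in CD8SP, 105.6 and 105.4 in OT-I CD8SP and 115.4 and 127.6 in DP cells. Without any scaling the median of members was 0.35 for CD4SP and 0.09 for CD8SP cells, that is, higher on the CKO array, and -0.19 for OT-I CD8SP and 0.10 for DP cells. With the 75th percentile of probes well above background on all arrays it was -0.35 in the CD4SP, -0.16 in the CD8SP, 0.09 in the OT-I and 0.03 in the DP pair. The share of probes well above background was 45.4% and 40.4% in CD4SP cells of the CKO and the control, 41.4% and 39.1% in CD8SP, 40.4% and 40.6% in OT-I CD8SP and 43.4% and 45.9% in DP cells. In the CD4SP, CD8SP and DP pairs the array with more probes detected was thus the one with the lower ribosomal protein median on the main scale. Whether amounts of RNA or array quality take part in this was not tested.

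**Figure D4:**
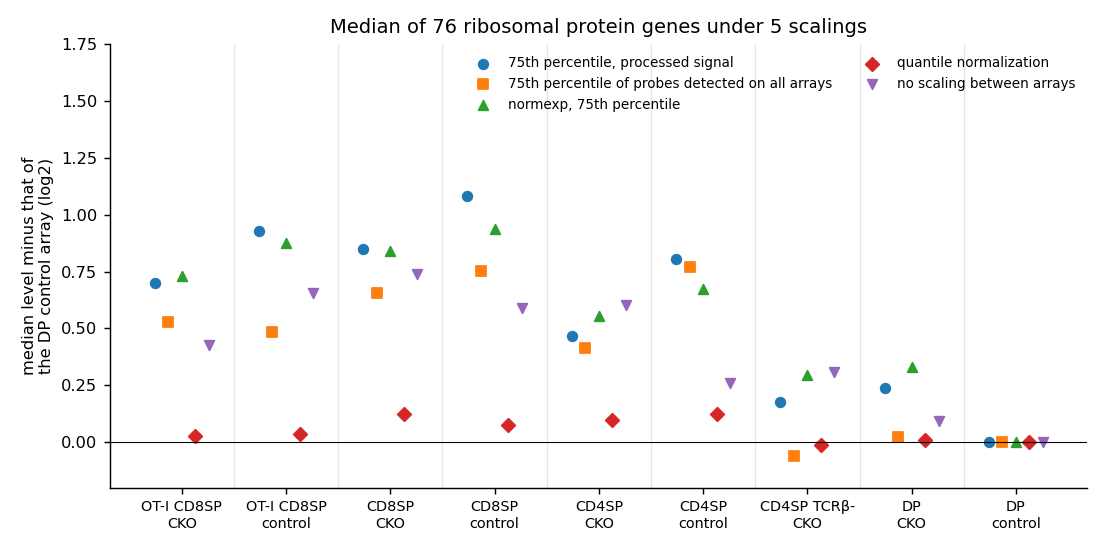
Median level of the 76 ribosomal protein genes other than paralogs on each array, minus that of the DP control array (y axis, log2), under 5 ways of scaling the arrays. The TCRβ-positive single positive arrays lie above the DP control under each of them and closest to it with quantile normalization, while the order of CKO and control changes with the scaling in CD4SP, CD8SP and OT-I CD8SP cells.

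**Figure D5:**
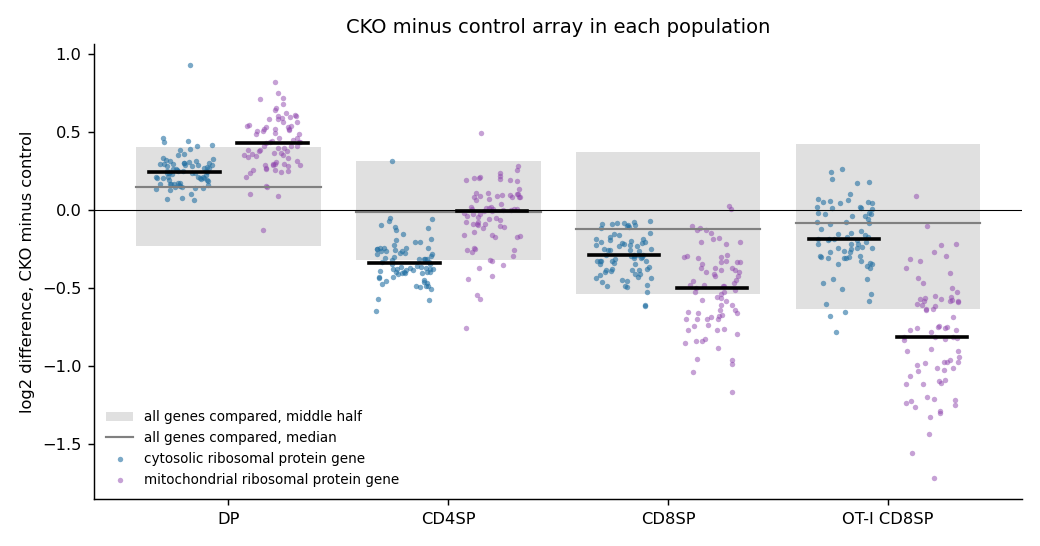
Log2 difference between the CKO and the control array of each population for 76 cytosolic (blue) and 77 mitochondrial (purple) ribosomal protein genes; black lines are their medians and grey boxes the 25th to 75th percentile of all genes compared. Cytosolic medians are 0.24, -0.34, -0.29 and -0.19 and mitochondrial ones 0.43, -0.01, -0.50 and -0.81 in the DP, CD4SP, CD8SP and OT-I CD8SP pairs on the main scale, and with no scaling the cytosolic ones of the CD4SP and CD8SP pairs are above 0.

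Within a pair, 2 members differed by more than 2-fold, Rps27l and Rpl39l. Rps27l was lower in CKO cells by 1.21 in the CD8SP pair (more than 2-fold lower: 10.1% of all genes) and by 2.01 in the OT-I pair (15.6% of all genes). Rpl39l was higher in CKO cells and well above background on the CKO array alone, so its ratios to the control's dim signal are uncertain. They were 29.1-fold in the DP pair (more than 2-fold higher: 4.86% of all genes), 9.31-fold in the CD8SP pair (9.31% of all genes) and 4.03-fold in the CD4SP pair (6.64% of all genes). Rpl39l was not well above background on either OT-I array or on the TCRβ-negative CKO array. Its levels were -0.51 and -5.37 on the CKO and control arrays of DP cells, 0.51 and -2.71 of CD8SP cells and -1.38 and -3.39 of CD4SP cells.

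Among the 76 members other than paralogs, Rps2, of the small subunit, varied most relative to the median of the members on its array, with an SD of 0.41 over the 9 arrays against a median SD of 0.11 for the 76 members. It was 0.93 higher in the CKO in the DP pair, 0.31 higher in the CD4SP pair, and 0.23 and 0.78 lower in the CD8SP and OT-I pairs. Its second probe gave 0.35, -0.14, -0.78 and -0.61 in these pairs, so the CD4SP sign differed between the probes. Rpl36, Rpsa and Rpl31 varied least, with SDs of 0.05, 0.06 and 0.06. In the CD4SP pair Rps14 and Rplp0 had the lowest values of the well-measured members (-0.65 and -0.58). In the OT-I pair, after Rps27l, Rps2 (-0.78), Rpl7l1 (-0.71) and Rpl3 (-0.68) were the lowest of them, and Rps27, Rps7 and Rps24 the highest (0.26, 0.24 and 0.20). In the CD8SP pair the lowest well-measured members after Rps27l were Rpl7l1 (-0.71) and Rpl3 (-0.62), and Rps27 was the least negative (-0.07). In the DP pair Rpl27 and Rpl14 followed Rps2 (0.46 and 0.44), and Rpl22l1 was the 1 well-measured member below 0 (-0.21). Over the 76 members the differences in the CD8SP and OT-I pairs, which share no array, had r = 0.54 and rho = 0.54. Of the other pairs of comparisons, DP with CD4SP had r = 0.45 and rho = 0.20, and the remaining 4 had r from -0.30 to 0.17, so that the order of members was not shared by all pairs. The points of a pair share their arrays, and members are not independent replicates.

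The picture was the same over all probes of the members, which include the probes used for the gene values. There were 171 probes for the 82 genes, and 164 were well above background on all 9 arrays. All 164 had a positive estimate for CD8SP and for OT-I CD8SP minus DP cells, and 158 for CD4SP minus DP cells. The genotype estimate was negative for 150. The CKO array was the higher one for 161 in the DP pair, and the lower one for 156 in the CD4SP, 160 in the CD8SP and 130 in the OT-I pair. Probes of 1 gene differed in genotype for Rpsa (4 probes, -1.51 to -0.20) and Rpl30 (3 probes, -0.60 to -0.08), while the median range was 0.05. Ribosomal proteins have many processed pseudogenes with near-identical sequence, and a probe may also bind their transcripts.

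Genes of the ribosome's surroundings were set beside the members. Of 44 ribosome biogenesis genes, 41 had positive estimates for CD8SP minus DP cells (52% of all genes), with a median of 0.96. In limma's fit 1 of the 44 rose (2.44% of all genes), Tsr1, a factor of small subunit maturation (1.66, SE 0.29, adjusted p = 0.0445). Tsr1 was also the 1 gene that rose in OT-I CD8SP relative to DP cells (1.69, SE 0.29, adjusted p = 0.0430; 1.9% of all genes rose). In CD4SP minus DP cells 36 of 44 were positive (49.9% of all genes), with a median of 0.33 and none called. Of 19 other translation genes with a 5'TOP start, 19 had positive estimates for CD8SP minus DP cells (median 0.67) and 15 for CD4SP minus DP cells (median 0.24), again with none called; the largest was that of Eef1g, a subunit of elongation factor 1, at 1.35 (SE 0.32, adjusted p = 0.0887). Of 17 regulators tested, 11 had negative estimates for CD8SP minus DP cells (median -0.22) and none was called. Myc had the highest, 2.31 (SE 0.55, adjusted p = 0.0904), and Rptor, a subunit of mTOR complex 1, the lowest, -1.08 (SE 0.30, adjusted p = 0.118).

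Genes of the mitochondrial ribosome's proteins, which are made in the cytosol and imported, had lower medians than the cytosolic ones for CD8SP and for CD4SP minus DP cells. Of 77 tested, 71 had positive estimates for CD8SP minus DP cells (median 0.48; 52% of all genes) and 24 for CD4SP minus DP cells (median -0.16; 49.9% of all genes), and none was called. In the pairs their median was 0.43 in DP, -0.01 in CD4SP, -0.50 in CD8SP and -0.81 in OT-I CD8SP cells, and in the OT-I pair 23 of 77 were more than 2-fold lower in the CKO (15.6% of all genes). Over the same pairs 18 proliferation genes had medians of -0.17, -0.00, -1.13 and -3.36 (17 genes in the CD4SP pair). Stage markers differed in these pairs too. The summed level of 8 DP stage genes was 6.21 and 9.32 in OT-I CD8SP cells of the CKO and the control, and 8.98 and 9.87 in CD8SP cells. That of 7 genes of mature thymocytes was 9.93 and 8.29 in OT-I CD8SP cells of the CKO and the control, 10.03 and 8.61 in CD8SP, 9.71 and 9.49 in CD4SP and 6.44 and 5.55 in DP cells. The part of these genes' cells in the values of ribosomal proteins was not tested.

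Between Brd1 genotypes none of these lists had a called gene. Estimates were negative for 54.7% of all genes. They were so for 73 of 77 mitochondrial ribosomal proteins (median -0.20), 26 of 44 biogenesis genes (median -0.06), 16 of 19 other 5'TOP genes (median -0.13) and 8 of 17 regulators (median 0.02). Eif4ebp1, the translation repressor that mTOR inactivates, had the lowest estimate of the regulators in limma's fit, -1.12 (SE 0.24, adjusted p = 0.210). It was lower on the CKO array in all 4 pairs: by 0.57 in DP, 1.54 in CD4SP, 0.89 in CD8SP and 1.46 in OT-I CD8SP cells. Of 17129 genes compared in all 4 pairs, 1383 were lower on the CKO array in each.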

How the data were processed

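Sorted thymocytes were measured on 9 one-colour Cy3 Agilent arrays (design 028005). The deposited scanner files give each spot's processed signal, an intensity that the authors made, per the file headers, with Agilent Feature Extraction 10.7.1.1 (background-subtracted, not scaled between arrays), and the median spot and background brightness, each an intensity. In the labels the labelling is that of biotinylated cRNA; the arrays are described by the scanner files. The deposited series table holds the same signals as an intensity over the 75th percentile of its array (r = 1 on the log2 scale on each array).

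From these, 3671 control spots and 144 of 55681 probes marked as outliers were left out. The log2 signal was taken minus the array's 75th percentile. RefSeq accessions of a table of assembly GRCm38.p6 named 26715 probes with 20258 symbols; the array design is of an older build, so no gene position is given besides the start windows of that table. A gene is its brightest probe, and is well above background where any of its probes is marked so. Population and genotype were fitted as additive terms in R 4.3.3 with limma 3.58.1 over all 9 arrays, for 20312 genes well above background on at least 2 arrays, with 3 residual and 2.91 prior degrees of freedom, two-sided, Benjamini-Hochberg over all genes, called below 0.05. The error is the spread of the genotype difference between 4 populations. Labels do not say that arrays of different populations come from separate mice, and p-values measure only the spread between these arrays. A bound is taken against the array's lowest signal well above background, or the dim probe's own signal where that is higher.

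Pairs of 1 CKO and 1 control array were compared without a test, for genes well above background on at least 1 of them. List levels are log2 of the summed linear signals over the 75th percentile. Normexp (offset 50) used the median spot signal, since the mean is not in the files. The other alternatives were scalings, the series table, the probe rule, detection filters, slide, single arrays and a variance trend; the setting without any scaling between arrays was added after seeing the data. The fit was tested on simulated data. The number of arrays limits the precision. Named were paralogs and members of known role, called members, members past 2-fold or at the ends of each pair, and members with the most discordant probes; a few others (Rps18, Rpl36, Rpl31, Rps7, Rps24) were chosen after their values were seen. The members and lists were chosen with earlier results of these data known. A few results are not reported here.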

Additional observations from a re-analysis of the deposited data

Results flagged for a closer look

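On the main scale Rpl22, Rpl10, Rpl7 and Rpl11 had 1 pair of arrays far from the other 3 in the difference between CKO and control. It was the DP pair each time. This depends on the scaling: with no scaling between arrays the members' median was above 0 in the CD4SP and CD8SP pairs as well as in the DP pair. For Rpl22 the difference was 0.21 in DP and -0.49, -0.49 and -0.54 in CD4SP, CD8SP and OT-I CD8SP cells, and the gap to the nearest pair was 0.93 of the whole range. For Rpl10 it was 0.15 against -0.38, -0.45 and -0.36 (gap 0.859 of the range), for Rpl7 0.28 against -0.26, -0.29 and -0.22 (0.875), and for Rpl11 0.27 against -0.39, -0.40 and -0.30 (0.858). The gap that marks such a value by chance in about 1 of 20 groups of 4 was passed by 4 of 26 items, which share their arrays.

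The median of the ribosomal protein genes other than paralogs was 0.24 in the DP and -0.34 in the CD4SP pair, a difference of 0.58 between pairs that was not tested; without scaling between arrays the CD4SP median was above 0.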

How the results depend on the processing

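Medians of the ribosomal protein genes above DP cells stayed positive for CD8SP, OT-I CD8SP and CD4SP cells under every alternative that was run, at 0.19, 0.16 and 0.16 with quantile normalization, and leaving out single arrays gave 0.64 to 1.15, 0.56 to 1.05 and 0.26 to 0.79. The number of members called higher than in DP cells changed most. In CD8SP, OT-I CD8SP and CD4SP cells, in this order, it was 38, 20 and 4 with normexp, and 20, 9 and 2 with a variance trend. It was 0 in all 3 with the 75th percentile of probes well above background on all arrays, quantile normalization, slide as a block, or no scaling. With genes well above background on all 9 arrays it was 4 and 5 in CD8SP and OT-I CD8SP cells. It was 0 in CD4SP cells with no detection filter and 0 in CD8SP cells with slide 1 alone. Leaving out single arrays gave 0 to 1 in each. With slide 1 alone 1 member, Rps27l, was called lower in CD4SP than in CD8SP cells, and with normexp 1 was called lower in TCRβ-negative than in CD4SP cells, Rpl22l1.

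The genotype median was 0.083 with no scaling and -0.26 to -0.08 without single arrays. The CD4SP pair median was 0.35 with no scaling and -0.019 with quantile normalization, and the CD8SP pair median 0.085 with no scaling. The median of CD4SP minus CD8SP cells was -0.0044 with quantile normalization and -0.51 to -0.25 without single arrays. Without single arrays TCRβ-negative cells had -0.05 to 0.47 against DP and -0.56 to -0.29 against CD4SP cells, and OT-I CD8SP minus CD8SP cells -0.20 to 0.02. The cause of these changes was not tested, beyond the equal brightest values that quantile normalization makes. OT-I cells were on slide 2 alone and have no value within slide 1. No paired analysis was possible because the replicate numbers, with 1 array per group, are only names; CKO and control arrays are compared within populations, which are a term of the fit. Low signal limits Rpl39l, Rpl3l and Rpl10l.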
